A study of Mus musculus with 2 samples.

Results

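The mouse genes for neurexins, neuroligins and leucine-rich repeat transmembrane neuronal proteins (LRRTMs) were described in the embryonic forebrain: Nrxn2 and Nrxn3, Nlgn1 to Nlgn3 and Lrrtm1 to Lrrtm4. The rule that picks them uses gene names and no measured value, although it was set with earlier results of these data known. All 9 had a row among the 43346 mouse genes of both libraries and 60 transcripts in the transcript tables. Total RNA over 200 nucleotides was sequenced from forebrain of embryos at day 15.5, healthy B6NCrl mice of both sexes. There was 1 group, untreated and without a labelled mutation, with 2 replicates: replicate 1 was a pool of 78 embryos and replicate 2 a pool of 62, with 10 ng of RNA each. The depth was 38720511 estimated reads in replicate 1 and 35103430 in replicate 2. Since there was no condition to contrast, no test was made and no p-value is given, and differences were set against the spread of the 2 libraries.

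Neurexins are adhesion proteins of the presynaptic membrane. Each gene can make a long alpha form and a short beta form from separate promoters, and alternative splicing changes which partners they bind. Neuroligins and LRRTMs sit in the postsynaptic membrane and bind neurexins across the cleft. Neuroligin-1 is known for excitatory synapses and neuroligin-2 for inhibitory ones, while neuroligin-3 is found at both. An insert at splice site 4 of neurexins blocks the binding of LRRTM1 and LRRTM2 and favours that of cerebellins, and an insert at site B of neuroligin-1 weakens binding to alpha-neurexins.

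The alternative exons that bear on these interactions are shown because the transcript results below turn on them. They were read from the GENCODE M21 transcripts on mm10, 5′ to 3′ on the strand of the gene. The splice site 4 exon of Nrxn3 has 90 bases and lies at chr12:90199147-90199236 on the plus strand.
Nrxn3 splice site 4: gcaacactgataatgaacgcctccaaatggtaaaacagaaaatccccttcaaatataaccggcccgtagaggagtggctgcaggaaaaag

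The neuroligin inserts at site A lie in the extracellular domain. Nlgn1 has an exon of 60 bases at chr3:25920178-25920237, minus strand. Nlgn3 has a pair of exons of 60 bases, called A1 (chrX:101303072-101303131) and A2 (chrX:101307075-101307134), both on the plus strand. The Nlgn1 exon and the A2 exon of Nlgn3 had the same base at 43 of 60 positions (71.7%), in capitals below, whereas A1 and A2 of Nlgn3 shared 19 of 60 (31.7%). The site A exon of Nlgn2 (chr11:69830563-69830613, minus strand) has 51 bases, and the site B exon of Nlgn1 (chr3:25439865-25439891, minus strand) has 27.
Nlgn1 site A: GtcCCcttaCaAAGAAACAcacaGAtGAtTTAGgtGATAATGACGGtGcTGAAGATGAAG
Nlgn3 site A2: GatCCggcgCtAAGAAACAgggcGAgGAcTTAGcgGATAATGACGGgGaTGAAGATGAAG
Nlgn3 site A1: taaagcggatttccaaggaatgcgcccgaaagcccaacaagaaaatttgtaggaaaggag
Nlgn2 site A: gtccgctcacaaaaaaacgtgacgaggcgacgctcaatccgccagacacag
Nlgn1 site B: gtaaccgttggagcaattcaaccaaag

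All 9 genes were expressed at 1 TPM or more in both libraries, against 60.6% of the 21474 protein-coding genes. TPM is a relative abundance of transcripts, corrected for their length and scaled to a fixed sum per library. The same 9 also passed 5 TPM. Levels ranged 8.68-fold, from Lrrtm2 at 8.98 ± 0.32 TPM to Nrxn3 at 77.9 ± 3.74 TPM (mean ± SD, n = 2, as for all values with an SD below). Since this was whole tissue, fewer cells that express a gene and less RNA per cell cannot be told apart.

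Among the neurexins, Nrxn3 (chr12:88722876-90334935, plus strand) had 80.5 and 75.2 TPM in replicates 1 and 2, and Nrxn2 (chr19:6418731-6544169, plus strand) had 27.8 and 25.8 TPM. Both Nrxn3 libraries were above both Nrxn2 libraries. The log2 ratio of Nrxn3 over Nrxn2 was 1.54 ± 0.01. By gene total, Nrxn3 stood above 89.5% of the 21474 protein-coding genes, detected or not, and Nrxn2 above 73.8%. Ranked by annotated coding transcripts only, Nrxn3 stood above 74.3% and Nrxn2 above 61.3%.

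Of the neuroligins, Nlgn3 (chrX:101299168-101325963, plus strand) was the highest, with 43.6 and 45.2 TPM in replicates 1 and 2. Nlgn1 (chr3:25426215-26332460, minus strand) had 21.5 and 17.9 TPM, and Nlgn2 (chr11:69823122-69837784, minus strand) had 17.4 and 17.6 TPM. Nlgn3 exceeded both others in each library, with log2 ratios of 1.18 ± 0.22 over Nlgn1 and, written as Nlgn2 over Nlgn3, -1.34 ± 0.02. Nlgn2 and Nlgn1 did not differ beyond the spread of the libraries, their log2 ratio of TPM being -0.17 ± 0.20. Without length correction, which favours genes with long transcripts, it was -0.73 and -0.43 in replicates 1 and 2, so Nlgn2 was then below Nlgn1 in both libraries. Nlgn3 supplied 54.4 ± 2.21% of the summed neuroligin TPM.

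Of the LRRTMs, Lrrtm1 (chr6:77242689-77257791, plus strand) was the highest, with 45.4 and 42.9 TPM in replicates 1 and 2. Lrrtm3 (chr10:63928472-64090277, minus strand) followed with 20.4 and 19.3 TPM, and Lrrtm4 (chr6:80018877-80810143, plus strand) with 12.8 and 14.2 TPM. Lrrtm2, on chromosome 18, had 9.20 and 8.75 TPM. The libraries of these 4 genes did not overlap, and Lrrtm1 supplied 51.02 ± 0.95% of the summed LRRTM TPM. The log2 ratios over Lrrtm2 were 2.30 ± 0.01 for Lrrtm1, 1.15 ± 0.01 for Lrrtm3 and 0.59 ± 0.16 for Lrrtm4, and without length correction they were 1.15, 0.17 and -0.20.

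Ordered by mean TPM, the genes ran Nrxn3, Nlgn3, Lrrtm1, Nrxn2, Lrrtm3, Nlgn1, Nlgn2, Lrrtm4 and Lrrtm2. Neighbours were called different only where their libraries did not overlap and the gap of the means exceeded the larger SD, which held for 5 of 8 neighbouring pairs. Nlgn3 and Lrrtm1, Lrrtm3 and Nlgn1, and Nlgn1 and Nlgn2 did not differ by this rule in TPM. Their scaled reads without length correction lay apart, at 170.9 for Nlgn3 and 67.3 for Lrrtm1, 34.2 for Lrrtm3 and 81.1 for Nlgn1, and 54.0 for Nlgn2. The neuroligins summed to 81.6 ± 1.25 TPM and the LRRTMs to 86.5 ± 1.87 TPM, a log2 ratio of -0.08 ± 0.01 that turned to 0.95 without length correction.

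**Figure D1:**
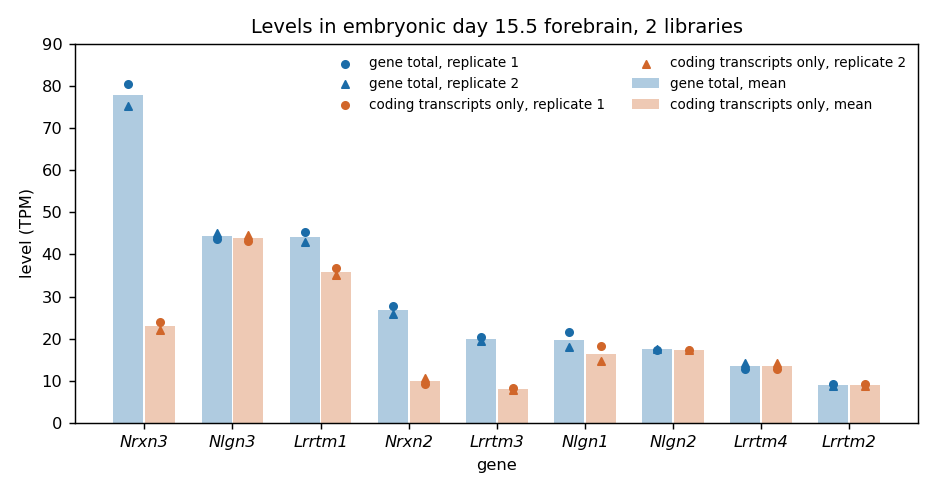
Level in TPM (vertical axis) of each gene (horizontal axis) in embryonic day 15.5 forebrain; blue is the gene total and orange its annotated coding transcripts, bars are means of 2 libraries, circles replicate 1 and triangles replicate 2. Nrxn3 is the highest by gene total at 77.9 TPM. By coding transcripts, incomplete models included, Nlgn3 is the highest at 44.0 TPM, against 23.0 TPM for Nrxn3.

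A gene total in these tables adds coding and noncoding transcripts, and this mattered most for the neurexins and Lrrtm3. Annotated coding transcripts, incomplete models included, made up 29.5 ± 0.34% of the TPM of Nrxn3, 37.0 ± 5.55% of Nrxn2 and 40.7 ± 0.32% of Lrrtm3. These 3 of 9 genes lay under 50% by TPM, as did 8.33% of the 13007 detected protein-coding genes with transcripts in the annotation. The 3 are among the 5 of these genes that span over 100 kb. Of the 2041 detected genes of that span, 11% lay under 50%. By reads, without length correction, coding transcripts held more than 50% of each of the 3 genes in both libraries. The coding Lrrtm3-201, for example, had 743.0 and 638.0 of the 1355 and 1175 Lrrtm3 reads in replicates 1 and 2. Shares under 50% in these 3 genes thus depended on the length correction. In the remaining genes the coding share of TPM was 81.2% for Lrrtm1, 83.2% for Nlgn1, 99.2% for Nlgn3 and 99.3% for Nlgn2. It was 100% for Lrrtm2 and Lrrtm4. The median over the 9 genes was 83.2%, beside 98.4% over the detected genes.

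Counted by coding transcripts, Nlgn3 led with 43.3 and 44.7 TPM in replicates 1 and 2. Lrrtm1 had 36.7 and 35.0 TPM, and Nrxn3 had 23.9 and 22.0 TPM. The Nlgn3 sum includes the incomplete coding model Nlgn3-203, with 11.5 and 14.7 TPM. That is more than the mean gap of 8.145 TPM to Lrrtm1, so the lead over Lrrtm1 depended on counting it. After Nrxn3 the order ran Nlgn2 at 17.4 TPM, Nlgn1 at 16.4 TPM, Lrrtm4 at 13.5 TPM, Nrxn2 at 9.88 TPM, Lrrtm2 at 8.98 TPM and Lrrtm3 at 8.09 TPM on average. Neighbours differed beyond their spread in 6 of 8 pairs, the exceptions being Nlgn2 with Nlgn1 and Nrxn2 with Lrrtm2. Only 26 of the 36 gene pairs kept the order they had by gene totals. Nlgn2 over Nlgn1 changed sign, to a log2 ratio of 0.09 ± 0.23 that was within the spread. Lrrtm3 was below Lrrtm2 (log2 ratio -0.15 ± 0.02), and the neuroligins summed to 77.8 ± 1.59 TPM, above the LRRTMs at 66.4 ± 0.86 TPM.

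**Figure D2:**
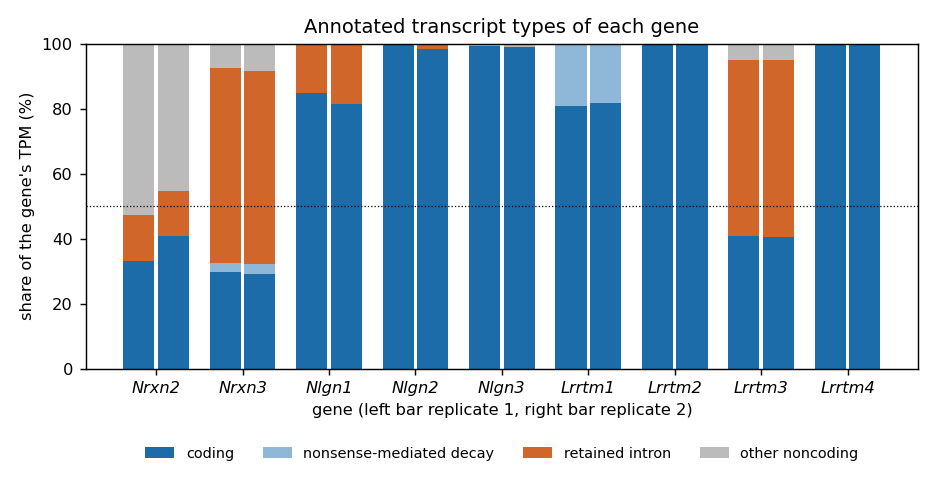
Share of each gene's TPM (vertical axis, percent) from annotated transcript types; the left bar of each gene is replicate 1, the right bar replicate 2, and the dotted line marks 50%. Nrxn2, Nrxn3 and Lrrtm3 lie under the line in coding share in both libraries, and retained introns hold 59.9% of Nrxn3 and 54.3% of Lrrtm3 on average.

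The most abundant Nrxn3 transcript was Nrxn3-204, of 2278 nucleotides and annotated as a retained intron, with 38.8 and 35.1 TPM in replicates 1 and 2. It begins within 0.1 kb of the gene start and ends 128 kb into a gene of 1612.1 kb. The alpha coding transcript Nrxn3-205, of 7922 nucleotides, had 17.4 and 16.1 TPM but more reads, 3180.5 and 2704.8, against 1980.9 and 1645.4 reads for Nrxn3-204. A further retained-intron transcript, Nrxn3-209, had 9.55 and 9.73 TPM and ends 539 kb into the gene. Nrxn3-206, a short noncoding transcript, had 2.84 and 5.19 TPM.

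In Nrxn2 the most abundant transcript was Nrxn2-213, a noncoding transcript of 576 nucleotides near the 3′ end, with 12.5 and 11.7 TPM in replicates 1 and 2. It held 45.0% of the gene's TPM on average, but rested on only 139.2 and 119.6 of the 1324.6 and 1208.8 estimated reads of the gene. The antisense gene Gm14964, with 12.1 and 12.2 TPM, shares 207 exonic bases with Nrxn2. No source used here says whether counting was by strand, so reads of the shared bases cannot be told apart. The beta transcript Nrxn2-202 had 5.38 and 5.47 TPM and the alpha transcript Nrxn2-205 had 2.63 and 2.38 TPM. Nrxn2-210, a retained intron, had 2.41 and 2.38 TPM. The short upstream transcripts Nrxn2-214, with 2.02 and 0 TPM, and Nrxn2-209, with 0.37 and 1.41 TPM, differed between the libraries.

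Alpha and beta neurexins were told apart by their first exon. Transcripts that start in the beta exon, 79.1 kb into Nrxn2 and 1089.6 kb into Nrxn3, were counted as beta, and those that start upstream and run past it as alpha. In Nrxn3 the alpha transcripts had 20.5 and 19.3 TPM in replicates 1 and 2 and the beta transcripts 5.75 and 4.88 TPM. In Nrxn2 the alpha transcripts had 3.28 and 3.53 TPM and the beta transcripts 5.69 and 5.62 TPM. Alpha was thus above beta in both libraries of Nrxn3 and below it in both libraries of Nrxn2.

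Of the summed alpha and beta TPM, alpha held 79.0 ± 1.19% in Nrxn3 and 37.6 ± 1.42% in Nrxn2. Alpha transcripts are longer and collect more reads for the same abundance, and as a share of reads they held 90.03% in Nrxn3 and 53.2% in Nrxn2. So the order of alpha and beta in Nrxn2 depended on the length correction, while alpha was above beta in Nrxn3 and its share above that of Nrxn2 either way. Transcripts that start upstream and stop before the beta exon had a further 54.2 and 51.1 TPM in Nrxn3 and 6.37 and 4.99 TPM in Nrxn2. Some of these are partial models, such as Nrxn2-210, which begins 54.4 kb into the gene, so their first base need not be a start site. Together with alpha they held 93.2 ± 0.46% of Nrxn3 TPM and 33.9 ± 1.19% of Nrxn2 TPM. Beta held 6.81 ± 0.46% in Nrxn3 and 21.1 ± 0.94% in Nrxn2, and the remaining 45.0 ± 0.25% of Nrxn2 was the 3′ transcript Nrxn2-213, which belongs to neither form.

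**Figure D3:**
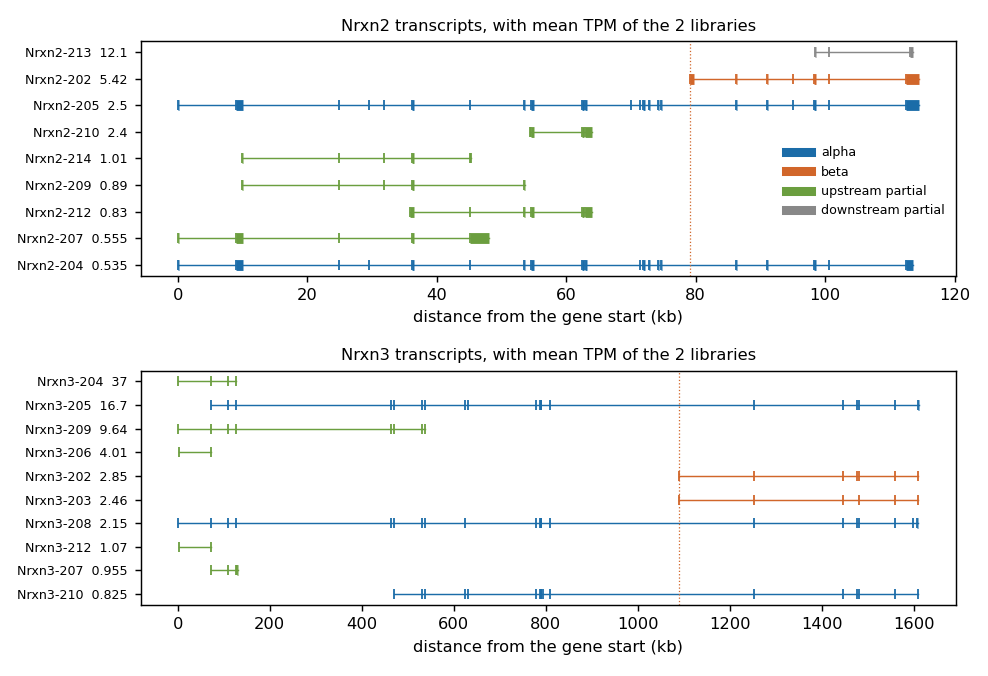
Exons (ticks and blocks) of Nrxn2 and Nrxn3 transcripts at a mean of 0.5 TPM or more, by distance from the gene start in kb (horizontal axis), with the mean TPM of 2 libraries beside each name; colours give the form, and the dotted line is the beta start. In Nrxn3 the highest transcript, at 37.0 TPM, stops long before the beta start, and in Nrxn2 the highest, at 12.1 TPM, lies wholly beyond it.

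Most Nrxn3 TPM that spans splice site 4 was assigned to annotated transcripts with the insert. Including transcripts held 88.7 and 91.1% of the spanning TPM in replicates 1 and 2. Skipping transcripts summed to 2.97 and 2.15 TPM. The skipping TPM of Nrxn3 was nearly all Nrxn3-203, a beta transcript with 2.88 and 2.04 TPM, beside 2.87 and 2.84 TPM for the including beta transcript Nrxn3-202. The rest, 0.09 and 0.11 TPM, was an alpha transcript annotated for nonsense-mediated decay. No coding alpha transcript without the insert is annotated, so the share depends on the annotation and does not measure splicing of alpha RNA.

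Shares were also summed over annotated transcripts for other neurexin cassettes of 27 bases. The exon at chr12:89354453-89354479 of Nrxn3 was included in 89.2 ± 0.27% of the spanning TPM, and that at chr12:89517906-89517932 in 5.13 ± 1.12%. In Nrxn2 the exon at chr19:6488784-6488810 was included in 84.1 ± 5.60%. This exon and the first of the Nrxn3 pair are each skipped by only 1 annotated transcript.

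The neuroligins differed in the TPM share of annotated transcripts with a site A insert. In Nlgn2 the insert was in 100 and 99.4% of the spanning TPM in replicates 1 and 2. In Nlgn3 the A2 insert was in 73.4 and 67.1% and the A1 insert in 7.16 and 7.99%. In Nlgn1 the site A insert was in 52.4 and 52.2%. By TPM, Nlgn1 was thus the lowest at site A among the inserts of Nlgn1 and Nlgn2 and A2 of Nlgn3, beyond the spread of the libraries.

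These shares rest on few transcripts, since the quantifier divides reads among annotated transcripts. In Nlgn1 the same transcripts carry or lack both inserts, so the share at site B equals that at site A and the sites cannot be told apart. Nlgn1-205 (11807 nucleotides, both inserts) had 9.42 and 7.61 TPM in replicates 1 and 2, and Nlgn1-203 (3013 nucleotides, neither) had 8.69 and 6.98 TPM. Counted in reads, the including share was 81.4% for Nlgn1 and 91.8% for A2 of Nlgn3. Skipping of A2 came only from Nlgn3-203, an incomplete coding model of 1852 nucleotides with 11.5 and 14.7 TPM. For Nlgn2 the only annotated transcript that skips site A is an incomplete coding model of 784 nucleotides, with 0 and 0.10 TPM. The difference among the neuroligins thus cannot be told apart from a difference in which transcripts are annotated. No counts of reads across exon junctions were used here.

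**Figure D4:**
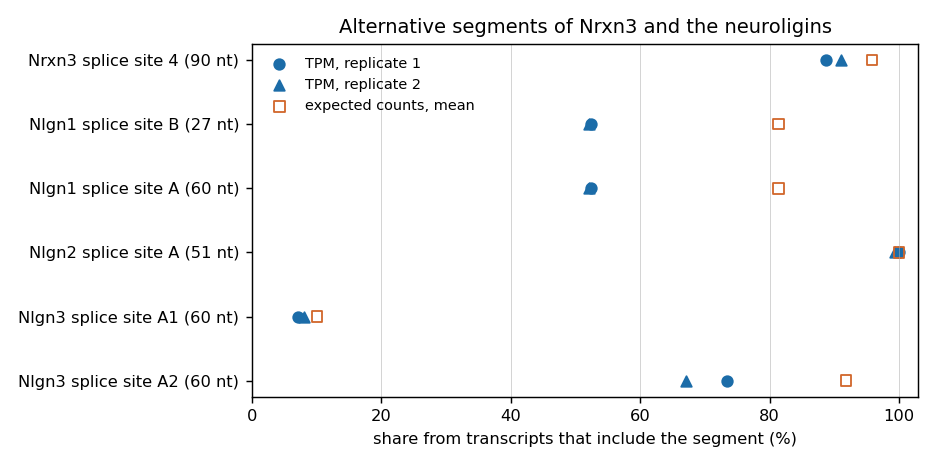
Share of spanning transcripts that include each alternative segment (horizontal axis, percent), one row per segment with its length; blue circles and triangles are TPM shares in replicates 1 and 2, and orange squares are mean shares of expected counts. TPM shares are 88.7 and 91.1% for splice site 4 of Nrxn3 and near 52% for Nlgn1, where the share of counts is 81.4%.

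The other neuroligin transcripts at 5% or more of their gene were few. Nlgn1-204, a retained intron, had 3.25 and 3.30 TPM in replicates 1 and 2. Nlgn2-201 had 11.5 and 10.03 TPM and Nlgn2-202, which starts at another first exon, had 5.81 and 7.24 TPM; both code for 2508 bases. Nlgn3-201, with A2 and without A1, was the main Nlgn3 transcript at 26.9 and 24.4 TPM, and Nlgn3-206, with both, had 3.10 and 3.57 TPM.

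The annotated transcripts of LRRTM genes have few exons. Lrrtm1-202 had 22.7 and 26.02 TPM in replicates 1 and 2 and Lrrtm1-203 had 14.0 and 8.67 TPM, and both have 1566 coding bases. Lrrtm1-201, annotated for nonsense-mediated decay, also has 1566 coding bases and had 8.72 and 7.86 TPM. It was not counted as coding, and it is the part of Lrrtm1 outside the coding share of 81.2%. Lrrtm2-201 was the only Lrrtm2 transcript in the tables. The main Lrrtm3 transcript by TPM, Lrrtm3-204, was a retained intron of 2425 nucleotides with 11.05 and 10.6 TPM. The coding Lrrtm3-201 had 8.36 and 7.81 TPM but more reads, 743.0 and 638.0, against 601.3 and 527.9 for Lrrtm3-204. The short noncoding Lrrtm3-202 had 1.03 and 0.95 TPM.

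Lrrtm4 RNA was divided among several transcripts. Lrrtm4-206 had 5.90 and 5.97 TPM in replicates 1 and 2, and Lrrtm4-201 had 2.65 and 3.09 TPM. Lrrtm4-208, which runs to the far 3′ exon of the 791 kb gene and codes for 1773 rather than 1557 bases, had 1.35 and 0.76 TPM. The incomplete Lrrtm4-204, with 0.57 and 3.44 TPM, and Lrrtm4-202, with 1.70 and 0.26 TPM, were unlike in the libraries. The main transcript was the same in both libraries for all 9 genes.

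Lrrtm1, Lrrtm2 and Lrrtm3 each lie inside an alpha-catenin gene, on the opposite strand; alpha-catenins link cadherins to actin. Ctnna2, around Lrrtm1, had 105.3 and 96.5 TPM in replicates 1 and 2, and Ctnna1, around Lrrtm2, had 48.2 and 49.5 TPM. Ctnna3, around Lrrtm3, had only 0.95 and 0.54 TPM, so Lrrtm3 was above its host while Lrrtm1 and Lrrtm2 were below theirs. Lrrtm2 shares 95 exonic bases with Ctnna1, and Lrrtm1 and Lrrtm3 share none with their hosts. Of other genes that share exonic bases with these, A830092H15Rik (antisense to Nlgn1, 1229 bases) had 1.37 and 1.78 TPM, and Slc22a12 (opposite Nrxn2, 682 bases), Gm37980 (opposite Nrxn3, 439 bases), Gm21986 (same strand as Nlgn3, 3823 bases) and Gm4409 (antisense to Lrrtm4, 1543 bases) lay between 0.07 and 0.55 TPM. The pseudogene Gm6197 lies in Nlgn1 without shared exonic bases and had 4.79 and 7.89 TPM.

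The pools gave close values for these genes. After scaling by trimmed means, the log2 ratio of replicate 1 over replicate 2 lay between -0.03 (Nlgn2) and 0.27 (Nlgn1). None of the 9 genes passed 1.5-fold, against 1.9% of the 13020 detected protein-coding genes. The median absolute log2 ratio was 0.06 over the 9 genes and 0.08 over the detected genes, and 90.7% of the latter differed less than Nlgn1.

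The listed binding partners and regulators were nearly all expressed: 80 of 81 genes reached 1 TPM in both libraries, against 60.6% of all protein-coding genes. Their median was 19.4 TPM, close to the 20.9 TPM of detected protein-coding genes and above the 4.755 TPM of all protein-coding genes. Of the secreted ligands, 10 of 11 reached 1 TPM (median 7.88 TPM). Cbln2, a cerebellin that bridges neurexins to postsynaptic receptors, had 36.7 and 33.5 TPM in replicates 1 and 2, and Nxph1, a neurexophilin that binds alpha-neurexins, had 33.3 and 35.5 TPM. C1ql2, a C1q-like ligand, had 0.97 and 1.05 TPM and was the exception. Of the other membrane partners 7 of 7 reached 1 TPM (median 44.2 TPM), with the latrophilin Adgrl2 at 68.0 ± 7.13 TPM and the calsyntenin Clstn3 at 48.6 ± 4.45 TPM.

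On the presynaptic side, 8 of 8 cytoplasmic partners reached 1 TPM, with a median of 54.1 TPM. The scaffold Lin7c had 146 ± 9.46 TPM, while the scaffold Apba1 had 5.01 ± 0.41 TPM. On the postsynaptic side, 11 of 11 scaffolds reached 1 TPM, with a lower median of 16.8 TPM. Gphn, which codes for gephyrin of inhibitory synapses, had 23.2 ± 1.29 TPM, and the lowest was Shank2, a scaffold of excitatory synapses, at 6.23 ± 0.29 TPM. The blockers of neuroligins, Mdga2 and Mdga1, had 18.2 ± 0.23 and 10.1 ± 1.32 TPM.

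Heparan sulfate partners, whose sugar chains or receptors take part in LRRTM and neurexin binding, reached 1 TPM in 11 of 11 (median 27.5 TPM), led by the phosphatase Ptprs at 242 ± 7.07 TPM and the glypican Gpc2 at 149 ± 7.15 TPM, with Gpc5 lowest at 1.60 ± 0.24 TPM. Of the other leucine-rich repeat adhesion genes 17 of 17 reached it, with a median of 12.9 TPM. Lrfn5 had 47.9 ± 3.13 TPM, Flrt3 had 45.2 ± 2.14 TPM and Slitrk6 had 1.92 ± 0.21 TPM. Lrrtm1, at 44.1 TPM, was above the median of this list and below Lrfn5.

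All 4 surface proteases were expressed, with the sheddase Adam10 at 51.8 ± 1.57 TPM and Mmp9, which can cleave neuroligin-1, at 15.6 ± 0.92 TPM. The splicing regulators had the highest median of the partner lists, 68.2 TPM, with 10 of 10 at 1 TPM. Ptbp2, a neural splicing repressor, had 194 ± 9.13 TPM and Khdrbs1, a regulator of neurexin splice site 4, had 149 ± 7.37 TPM. Nova1, a neuronal splicing factor, was the lowest at 15.3 ± 3.18 TPM.

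Markers of neurons and radial glia were all present. Neuronal markers reached 1 TPM in 7 of 7 (Tubb3 1509 ± 3.27, Stmn2 626 ± 20.7 and Syn1 28.0 ± 2.22 TPM) and radial glia markers in 5 of 5 (Fabp7 1274 ± 101, Vim 466 ± 0.24 and Nes 42.9 ± 4.00 TPM). Astrocyte markers reached it in 2 of 5, with Aldh1l1 at 24.9 ± 3.05, Slc1a2 at 9.05 ± 0.59 and Aqp4 at 0.71 ± 0.23 TPM. Oligodendrocyte lineage markers (5 of 5, from Olig1 at 26.1 and Mbp at 10.1 to Sox10 at 1.24 TPM), endothelial markers (5 of 5, from Cldn5 at 75.1 and Esam at 28.5 to Tek at 6.05 TPM) and microglia markers (5 of 5, from C1qb at 24.3 and C1qa at 18.8 to Tmem119 at 4.13 TPM) were present too. Which cells the RNA of the 9 genes came from was not tested.

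**Figure D5:**
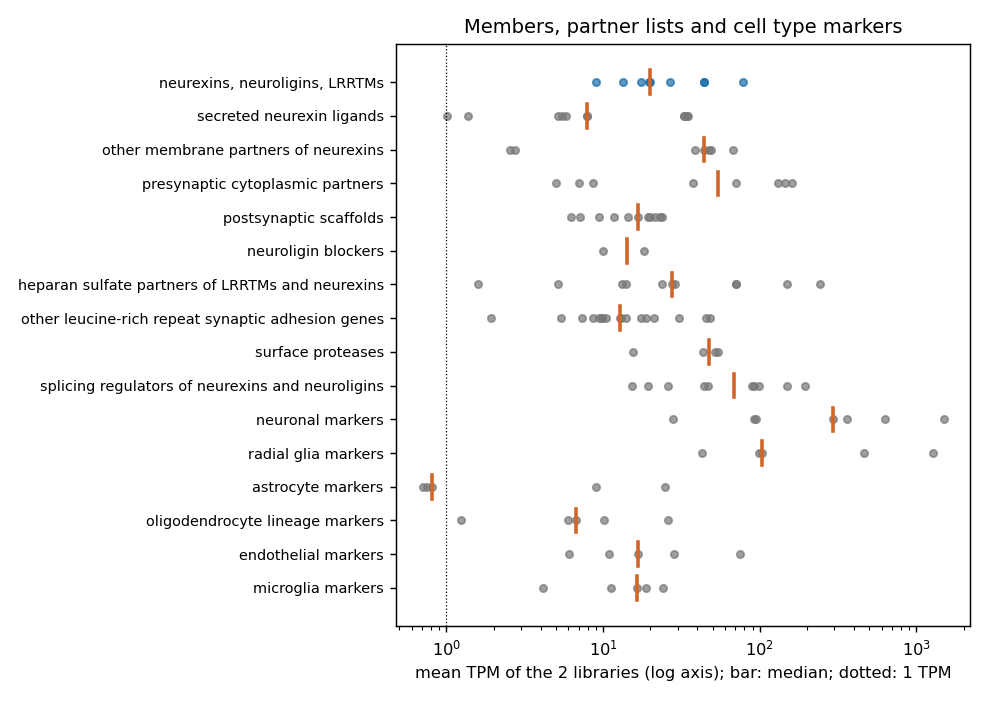
Mean TPM of 2 libraries (horizontal log axis) of each gene, by list (rows); the top row, in blue, holds the 9 genes, orange bars are list medians and the dotted line marks 1 TPM. The 9 genes spread from 8.98 to 77.9 TPM around a median of 19.9 TPM.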

How the data were processed

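RNA was profiled in 2 pools of forebrain, grouped by the labels. The genes and lists were chosen with earlier results of these data known. The assembly was mm10 and the annotation GENCODE M4, per the notes and headers of the files. Not given in the sources used here are the quantifier, the aligner, any version and the use of strand. Libraries are labelled as total RNA, but a manual linked in the protocols is of a cDNA kit known to prime from poly(A) tails. Which priming was used is not stated, and it bears on how fully noncoding and intron-retaining RNA is represented.

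The deposited expected counts divide a read among the transcripts it could come from. The TPM deposited by the authors are scaled by effective length and sum over all entries, of which spike-ins held 5.96 and 5.14%; the deposited FPKM are scaled per kilobase and library size. A percent column, also deposited, holds the part of a gene taken by a transcript. The score columns deposited beside these (posterior SD and interval bounds of unstated level) are not printed.

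Coordinates, transcript types, names and sequences come from GENCODE M21 on mm10, whose models can differ: all 60 transcripts matched, 58 with equal length. Transcripts without a match held 0.794 and 0.802% of protein-coding TPM and were left out of coding shares; 13 detected genes had no matched TPM. The span threshold of 100 kb was chosen after seeing the data. Named were all 9 genes, the 2 highest and the lowest of each list, overlapping genes and transcripts at 5% or more of a gene in either library; the 27-base cassettes and Nrxn3-202 and Nrxn3-203 were named after their values were seen. Some items that these rules name are not reported here. To compare the pools, counts were rounded and scaled by TMM (edgeR 4.0.16 under R 4.3.3) over genes with 10 or more summed reads, adding 0.5 reads. Alternatives used DESeq2 1.42.0 size factors, spike-in scaling, FPKM, posterior means, expected counts, coding transcripts and 1 library at a time. The scaling was tested on simulated data. Protein sequences were not used here. Tables were made with pandas 2.3.3 and numpy 2.4.6 in Python 3.11.15, and plots with matplotlib 3.10.9.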

Additional observations from a re-analysis of the deposited data

How the results depend on the processing

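Of 198 alternative values, 129 stayed within the spread of the libraries or within 1.5 times the count, 65 moved further and 4 reversed. The 129 include values from single libraries for the level of a gene, a ratio or a share. Those could not move by this rule, since with 2 libraries each lies closer to their mean than the SD. Some other values could not move either, such as the coding levels of Lrrtm2 and Lrrtm4, whose TPM was all coding. The 129 also include the gene order by coding transcripts, in which only 26 of 36 pairs kept their order. The median level of the 9 genes, 19.9 TPM, was 12.1 as FPKM, 54.0 as scaled reads without length correction, 16.4 TPM over coding transcripts, and 19.3 to 21.5 TPM in single libraries. Of 36 gene pairs, 30 kept their order without length correction and 26 by coding transcripts. Without length correction the log2 ratio was 2.35 for Nrxn3 over Nrxn2 and 1.15 for Lrrtm1 over Lrrtm2, and it reversed to -0.20 for Lrrtm4 over Lrrtm2 and to 0.95 for neuroligins over LRRTMs. By coding transcripts it was 1.22 for Nrxn3 over Nrxn2, 1.43 for Nlgn3 over Nlgn1 and 2.00 for Lrrtm1 over Lrrtm2, and it reversed to -0.15 for Lrrtm3 over Lrrtm2 and to 0.23 for neuroligins over LRRTMs. Posterior means gave 1.53 for Nrxn3 over Nrxn2 and 2.30 for Lrrtm1 over Lrrtm2, and a pseudocount of 1 TPM gave 1.505 and 2.18. By expected counts, alpha and upstream partial transcripts held 56.1% of Nrxn2 and 94.3% of Nrxn3, alpha held 53.2 and 90.03% of alpha and beta, and the inserts held 95.8% at Nrxn3 splice site 4, 81.4% at Nlgn1 site A and 91.8% at Nlgn3 A2. By coding transcripts, alpha and upstream partial transcripts held 43.2% of Nrxn2 and 76.9% of Nrxn3, and alpha held 76.9% of alpha and beta in Nrxn3. The posterior mean for Nlgn1 site A was 52.5%. Length correction and the choice of transcripts act on these values by construction; no other cause was tested. Scaling by the spike-ins moved the median ratio of the libraries by -0.20 on the log2 scale and took none of the 9 genes past 1.5-fold. There were 2 libraries, so an SD is itself imprecise, and shares rest on how the quantifier divided reads among annotated transcripts.
No paired analysis was possible because there is 1 group.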
